A study of Mus musculus with 2 samples.

Results

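Hox genes encode homeodomain transcription factors and lie in 4 clusters, HoxA to HoxD, of the mouse genome. The number in a gene's name is its paralog group, and genes of low number lie at the 3′ end of each cluster, switch on first in the embryo and mark anterior levels, while genes of high number mark posterior levels. In blood formation, HoxA genes of the middle and posterior groups are known for their activity in haematopoietic stem and progenitor cells, and the Hox proteins bind DNA together with TALE homeodomain cofactors of the Pbx and Meis families. The members described here were every row of the count tables whose symbol was Hox, a cluster letter and a number. There were 39 of them among 24543 genes, 11 in HoxA (chr6:52155590-52260880), 10 in HoxB (chr11:96194316-96368256), 9 in HoxC (chr15:102921103-103036852) and 9 in HoxD (chr2:74668310-74765142), all by the GRCm38 annotation.

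The cells were CD31+CD44+ cells sorted from the caudal region of mouse embryos at E10, a stage at which cells of the dorsal aorta pass through the endothelial-to-haematopoietic transition (EHT) and give rise to haematopoietic progenitors. By the study's methods the controls, labelled WT, were Nupr1 fl/fl and Nupr1 fl/+ littermates, and the cKO embryos were Vec-Cre;Nupr1 fl/fl, with Cre under the endothelial Cdh5 promoter. Embryos of both groups thus carried a floxed Nupr1 allele, all on a C57BL/6 background. Cells of both genotypes were hashtagged, pooled and loaded on 1 lane of a 10x Genomics chip, in 2 replicates, so that the data held 4 pools, 1 per genotype and replicate. How many embryos went into a pool is not given in the sources used here, and p-values measure only the spread between these pools.

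Of 2139 cells in the tables, 678 belonged to replicate 1 and 1461 to replicate 2, which was deeper (medians of 40962 and 59931 UMIs per cell). A UMI is a molecular tag that stands for 1 captured transcript. No cell barcode occurred in both replicates (0 shared), and 101 cells, all of replicate 1, did not meet the quality limits of the study's methods. Nupr1 itself was measured at 14.4 and 21.5 UMIs per 1000000 UMIs (CPM) in the control pools and at 0.573 and 1.50 CPM in the cKO pools. The X-linked transcript Xist was detected in 94.6% and 98.7% of control cells and in 3.49% and 57.6% of cKO cells, so that genotype and the sex of the pooled embryos cannot be told apart.

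Cells were grouped by gates on marker genes, none of them a Hox gene, set in UMIs per 10000 UMIs of the cell. The gates used Gja5 for arterial cells, Kitl with Esm1 for the vascular plexus, Nr2f2 with Aplnr for venous cells, Gfi1 with Neurl3 for cells in EHT, Ptprc with Myb for progenitors, Mpo with Fcgr3 for myeloid cells, C1qa for macrophages and Gp9 for megakaryocytes. They held 390 arterial, 95 plexus, 87 venous, 199 EHT, 83 progenitor, 129 myeloid, 624 macrophage and 225 megakaryocyte cells, and 307 cells passed none. A gated class is a range of marker levels and not a cell type. At the gates of 0.2 per 10000 (EHT, progenitor, venous and plexus) a lone UMI of each gene passes in a shallow cell. In a deep cell it does not, so membership also depends on depth. Of the EHT cells 65 would not pass a gate at 2 times the level and 37 more cells would pass at 0.5 times the level, and of the arterial cells 21 would not pass and 25 more would. The progenitor gate was the least sharp, since 193 cells lay between 0.5 times its level and the level itself, more than the 83 cells inside.

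Markers were then read in each class, where a gate gene such as Gja5 is high in its own class by construction. Cdh5, an endothelial cadherin, had a UMI in 99.7% of arterial and in 98.0% of EHT cells but in 48.2% of progenitor and 12.3% of macrophage cells. The median level of Gja5, a gap junction gene of arteries, was 10.3 UMIs per 10000 in arterial, 0.176 in EHT and 0 in progenitor cells. Myb, a transcription factor of blood progenitors, had a UMI in 78.4% of EHT cells, and Mpo in 91.6% of progenitor cells, so the progenitor gate held cells with early myeloid transcripts. Of the plexus cells 80.0% had a Gja5 UMI. The 6 arterial markers listed, Gja5 among them, summed to 2672 CPM in plexus and 3357 CPM in arterial cells (means over pools). The plexus class thus kept much arterial RNA.

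For 5 of the members that set the classes apart the 250 bases before the start are printed here, since 3 of them were higher and 2 lower in EHT than in arterial cells. The sequences are RefSeq's on GRCm38.p6, written 5′ to 3′ on the strand of the gene. Capitals mark matches, searched on both strands, to any of 5 short motifs. The Cdx-type motif was spelled TTTATG and the TATA box was spelled TATAAA. The motif named for its letters, CCAAT, was searched as such. The Runx-type motif was spelled TGTGGT, and the Hox-Pbx-type motif was spelled TGATTNAT, where N is any base. The windows are chr6:52227371-52227620 (minus strand) for Hoxa9, chr6:52218574-52218823 (minus) for Hoxa7, chr6:52204588-52204837 (minus) for Hoxa5, chr2:74704365-74704614 (plus) for Hoxd8 and chr11:96281655-96281904 (plus) for Hoxb8. The start used for Hoxa7 was not the start of a transcript in the annotation.
Hoxa9: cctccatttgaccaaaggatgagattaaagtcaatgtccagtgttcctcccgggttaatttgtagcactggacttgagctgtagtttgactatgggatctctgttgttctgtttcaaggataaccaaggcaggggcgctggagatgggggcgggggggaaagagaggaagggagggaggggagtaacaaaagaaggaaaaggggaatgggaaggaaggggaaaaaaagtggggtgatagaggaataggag
Hoxa7: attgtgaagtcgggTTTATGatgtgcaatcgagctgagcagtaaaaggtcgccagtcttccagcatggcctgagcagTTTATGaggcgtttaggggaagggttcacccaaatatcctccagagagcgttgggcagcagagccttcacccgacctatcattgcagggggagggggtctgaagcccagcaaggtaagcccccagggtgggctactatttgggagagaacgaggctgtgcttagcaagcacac
Hoxa5: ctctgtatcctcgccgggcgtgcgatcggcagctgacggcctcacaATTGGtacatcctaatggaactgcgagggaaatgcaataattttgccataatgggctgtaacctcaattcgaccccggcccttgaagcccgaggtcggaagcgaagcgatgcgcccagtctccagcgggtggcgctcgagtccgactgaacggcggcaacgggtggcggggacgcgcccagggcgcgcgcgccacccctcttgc
Hoxd8: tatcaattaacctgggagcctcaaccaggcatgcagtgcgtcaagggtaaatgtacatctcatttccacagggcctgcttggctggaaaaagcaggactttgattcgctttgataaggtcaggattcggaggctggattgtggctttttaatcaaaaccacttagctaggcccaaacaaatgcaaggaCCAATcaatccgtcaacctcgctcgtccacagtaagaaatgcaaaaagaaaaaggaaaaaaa
Hoxb8: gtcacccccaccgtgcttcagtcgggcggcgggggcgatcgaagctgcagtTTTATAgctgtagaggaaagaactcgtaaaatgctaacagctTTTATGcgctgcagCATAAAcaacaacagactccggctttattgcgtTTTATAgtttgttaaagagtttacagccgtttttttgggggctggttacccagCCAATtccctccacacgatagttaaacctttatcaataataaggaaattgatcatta

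The Hoxb8 window held 2 Cdx-type matches, 1 CCAAT and 2 TATA boxes, the Hoxa7 window 2 Cdx-type matches, the Hoxa5 and Hoxd8 windows 1 CCAAT each, and the Hoxa9 window none of the 5 motifs. Cdx-type letters stood in 5 of the 24 Hox windows (20.8%), which belong to 22 of the 39 genes, and in 10.8% of 32851 mouse promoter windows of the same length. CCAAT stood in 58.3% of the Hox windows and in 33.8% of all, the TATA box in 16.7% and 12.4%, the Runx-type letters in 4.17% and 14.0%, and the Hox-Pbx-type letters in 8.33% and 2.82%. No matches overlapped in the 5 windows shown. By base composition the Hoxa5 window stood apart with 63.6% G or C and 28 CpG, against a median of 52.4% and 6 CpG in all windows, while the Hoxa9 window had 49.6% and 3 CpG. These matches describe the letters of the windows and were not tested against the levels.

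Hox transcripts were sparse in the sorted cells as a whole. The 39 members had 17818 UMIs, 144 CPM over all cells, and 58.3% of cells held at least 1. Hoxb13, Hoxc12 and Hoxd12 had 0 UMIs, 5 members (Hoxa13, Hoxb1, Hoxc11, Hoxc13 and Hoxd13) had between 1 and 10, and 31 had over 10. Of these 8 low members all but Hoxb1 belong to groups 11 to 13, the most posterior. Exons of 5 members share bases on the same strand with another gene, and the share passes 10% of the exon length only in Hoxd4 (13.2%, shared with Hoxd3), so reads of Hoxd4 may in part be those of Hoxd3.

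The summed level of the 39 genes separated endothelial and EHT cells from mature blood cells. Arterial cells had 461 ± 63.2 CPM (SD, n = 4 pools), with 450 and 538 in the control and 385 and 472 in the cKO pools. EHT cells had 410 ± 19.2 CPM, venous cells 412 ± 85.8, and the ranges of these 3 classes overlapped. Plexus cells had 272 ± 31.1 CPM and progenitor cells 184 ± 62.7, from 118 to 268, and neither range reached the lowest arterial pool. The mature classes lay far lower, at 11.02 ± 3.40 CPM in myeloid cells (n = 3, since the cKO pool of replicate 1 held only 6 cells), 6.11 and 17.7 CPM in the 2 megakaryocyte pools and 5.52 ± 1.76 CPM in macrophages. A CPM is a share of all UMIs of a class, so less Hox RNA and more of other RNA per cell cannot be told apart.

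**Figure D1:**
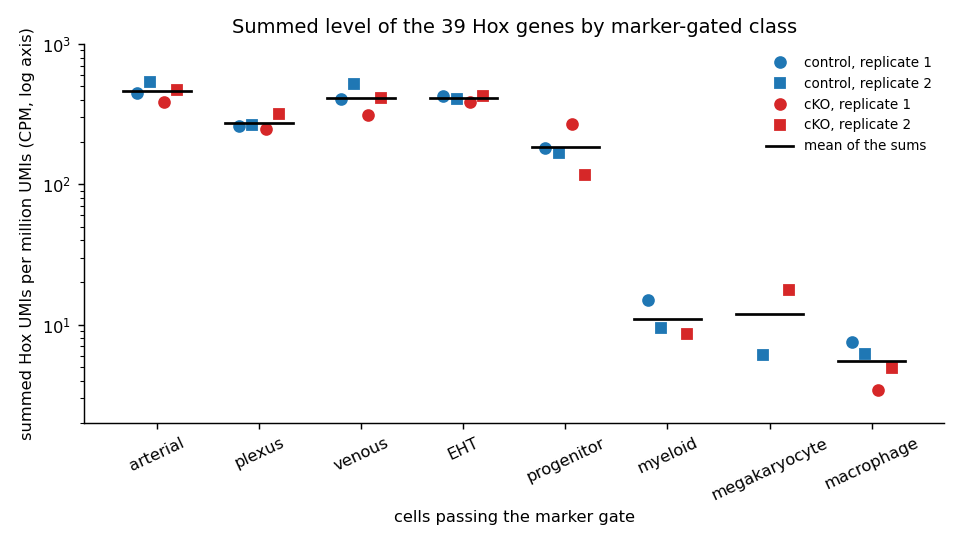
Summed UMIs of the 39 Hox genes per 1000000 UMIs (y axis, logarithmic) in each gated class (x axis), with 1 point per pool of embryos, blue for control and red for cKO, circles for replicate 1 and squares for replicate 2, and a bar at the mean. The arterial, venous and EHT pools sit between 311 and 538 CPM, and the macrophage pools between 3.43 and 7.56 CPM.

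At equal depth arterial cells were still highest and progenitor cells lowest of the endothelial and blood-forming classes, while EHT and venous cells changed places. With each cell thinned to 6000 UMIs, arterial cells had a mean of 2.87 Hox UMIs, EHT cells 2.41, venous cells 2.23, plexus cells 1.82, progenitor cells 1.29 and macrophages 0.0388. At least 1 Hox UMI was found in 90.1% of thinned arterial cells, 83.9% of EHT, 81.6% of venous, 73.7% of plexus and 47.6% of progenitor cells, against 3.40% of macrophages. Without thinning these shares were 98.7%, 99.0%, 98.9%, 95.8%, 81.9% and 23.1%, in the same order, at median depths of 23404, 49173, 78799, 33058, 70773 and 57216 UMIs. Every class named here but the macrophages lay above the macrophage share in both forms. Of the 144 unthinned macrophages with a Hox UMI, 107 held Hoxb4. How much of the macrophage share is background RNA was not tested. Of these classes thinning left out 15 arterial, 6 macrophage and 1 progenitor cells that were shallower, and 0 of the plexus, venous and EHT cells.

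The clusters divided this RNA differently in each class. In arterial cells HoxB had 46.2% of Hox UMIs as the mean over pools, HoxA 40.3%, HoxD 10.3% and HoxC 3.22%. HoxA and HoxB were about even in the control arterial pools, where HoxA had 193 and 244 CPM and HoxB 196 and 233 CPM, and HoxB was above HoxA in the cKO pools, at 194 and 226 CPM against 137 and 178 CPM. Venous cells had a like division (44.2%, 39.3%, 12.0% and 4.49%), and plexus cells leaned further to HoxB and HoxD (56.2% and 15.5%, with 27.1% HoxA). In EHT cells HoxA supplied 71.3 ± 2.84% and HoxB 25.5 ± 2.82%, and in progenitor cells 80.0 ± 3.46% and 18.9 ± 3.65% (SD, n = 4). The HoxA share ran from 35.5% to 45.2% over the arterial pools, from 68.3% to 75.1% over the EHT pools and from 75.6% to 83.9% over the progenitor pools, so neither blood-forming class overlapped with the arterial one.

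**Figure D2:**
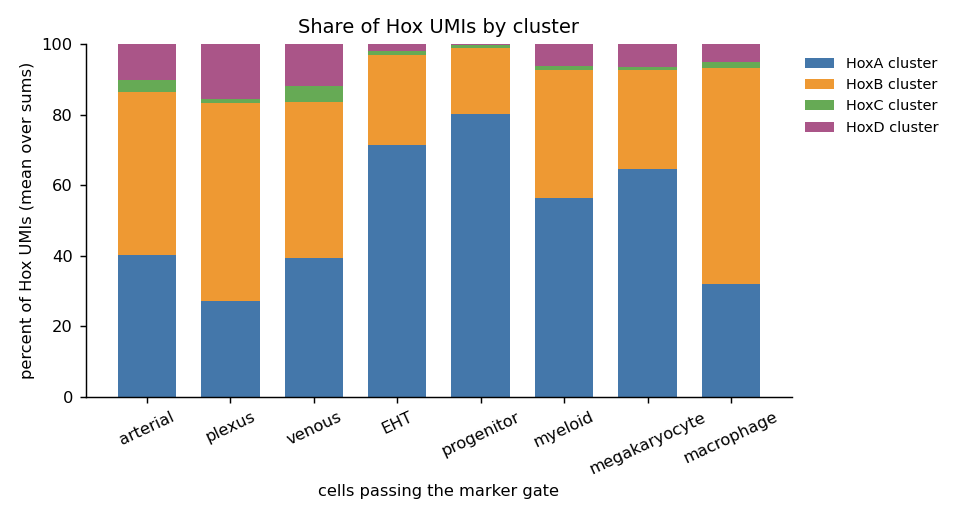
Percent of Hox UMIs (y axis) from the HoxA, HoxB, HoxC and HoxD clusters in each gated class (x axis), as stacked bars of the mean over pools. The HoxA part grows from 40.3% in arterial to 71.3% in EHT and 80.0% in progenitor cells, and the HoxD part shrinks from 10.3% to 1.94% and 0.36%.

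As summed levels, HoxA was higher and the other clusters lower in EHT than in arterial cells. HoxA summed to 188 CPM in arterial cells (137 to 244 over pools), 293 in EHT cells (264 to 319) and 146 in progenitor cells (95.2 to 203). HoxB went from 212 to 104 and 35.9 CPM, and HoxD from 46.8 to 7.95 and 0.70 CPM, with 462 HoxD UMIs counted in arterial, 90 in EHT and 4 in progenitor cells. HoxC was the lowest cluster of arterial, plexus, venous and EHT cells, at 15.04 ± 3.98 CPM in arterial cells and 5.22 ± 1.82 in EHT cells.

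Single cells showed the same division. Among cells with at least 5 Hox UMIs, the median HoxA share was 40% in 309 arterial cells, 28.6% in 70 plexus cells, 35.7% in 82 venous cells, 71.1% in 190 EHT cells and 85.7% in 45 progenitor cells. More HoxA than HoxB UMIs were found in 42.7% of these arterial, 12.9% of plexus, 32.9% of venous, 87.9% of EHT and 91.1% of progenitor cells. In arterial cells the quartiles of the HoxA share were 25% and 55.6%, and the median over all 390 was 10 Hox UMIs per cell, so the share of 1 cell carries a wide counting error. Cells of 1 pool share a library and are not replicates, so no test was made over cells.

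By paralog group, the sum of groups 9 to 13 took a larger share in the blood-forming classes, through Hoxa9. The other tested members of these groups had negative log2 fold changes in EHT against arterial cells, from -4.51 (Hoxd9) to -0.43 (Hoxb9). Of these, Hoxb9 and Hoxc10 did not pass the test described below. Groups 9 to 13 held 30.1% of Hox UMIs in arterial, 19.7% in plexus, 46.7% in EHT and 49.0% in progenitor cells, and groups 4 to 8 held 56.7%, 63.7%, 44.4% and 45.0%. Group 9 alone held 24.2% in arterial and 43.3% in EHT cells, and Hoxa9 supplied 15.1% of Hox RNA in arterial and 38.0% in EHT cells. Group 10 went the other way, from 5.67% to 3.30%, and groups 11 to 13 had 13 UMIs in arterial and 2 in EHT cells.

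The 10 leading members by their mean level over arterial, plexus, EHT and progenitor cells were, in order, Hoxa9, Hoxa7, Hoxb4, Hoxa5, Hoxb7, Hoxb2, Hoxb9, Hoxb8, Hoxd8 and Hoxa10. The 3′ UMI method counts transcripts without regard to length, so these levels can be set side by side, within the limits of how well each 3′ end is captured. Hoxa9, a factor that supports stem cell function, led by mean CPM in the arterial, venous, EHT, progenitor, myeloid and megakaryocyte classes. Hoxb4, a gene known for expanding stem cells when supplied in excess, led in plexus cells and macrophages. In the myeloid and megakaryocyte classes the Hoxa9 lead rested on few cells, with a UMI in 7 of 129 and 10 of 225. More of these cells, 19 and 20, had a Hoxb4 UMI. In arterial cells the next genes, Hoxa7 (48.6 ± 10.2 CPM), Hoxb7 (45.4 ± 5.33) and Hoxb4 (44.9 ± 5.47), did not differ beyond their spread. In EHT cells the first 3, Hoxa9 (156 ± 13.9), Hoxa7 (59.7 ± 5.38) and Hoxa5 (47.6 ± 6.93), were all HoxA genes, and Hoxa7 and Hoxa5 overlapped over the pools.

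**Figure D3:**
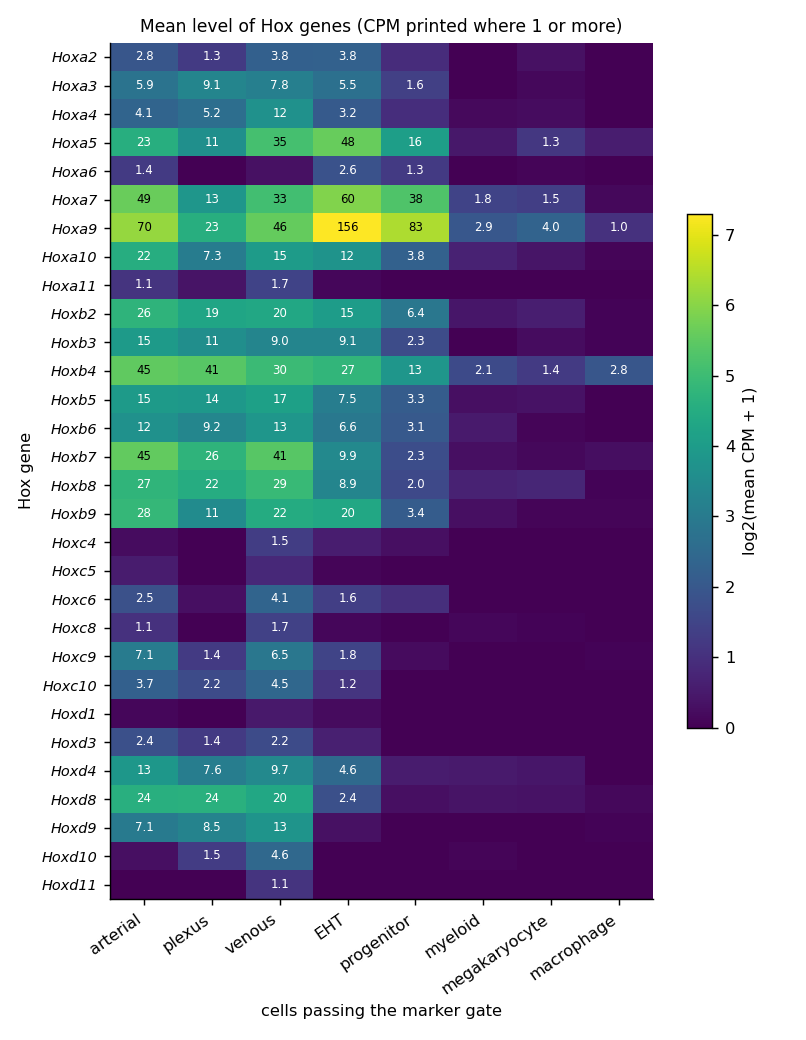
Mean CPM over pools, shown as log2(mean CPM + 1) by colour and printed as CPM where it is 1 or more, of the Hox genes with over 10 UMIs (rows, in cluster order, 1 gene not shown) in each gated class (columns). The brightest cell is Hoxa9 in EHT cells at 156 CPM, and the HoxD rows are dark in EHT and progenitor columns.

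The question put to the EHT and arterial gates was which Hox genes differ between the 2 classes. Rises and falls here compare classes of cells taken at 1 stage from the caudal region. Change of a cell over time was not tested, nor was a difference between the classes in position along the body. Of 39 members 20 had enough UMIs to be tested, and 16 passed the edgeR quasi-likelihood test, with the pool as a block, at an adjusted p (Benjamini-Hochberg over all genes) of 0.05. Of these 3 were higher, all of HoxA, and 13 were lower, 2 of HoxA, 7 of HoxB, 1 of HoxC and 3 of HoxD. Among all 10578 genes tested 55.3% were called, 26.4% higher and 28.9% lower, so a call by itself was common in this contrast. The median log2 fold change was -0.77 over the 20 members and -0.01 over all genes.

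Hoxa9 was the member with the most UMIs and the largest rise. Its level in arterial cells was 71.2 and 106 CPM in the control and 47.6 and 54.9 CPM in the cKO pools, and in EHT cells 159 and 151 CPM in the control and 141 and 173 CPM in the cKO pools. Every EHT pool lay above every arterial pool. The log2 fold change was 1.26 (SE 0.20, 95% interval 0.77 to 1.75, edgeR adjusted p = 0.00213), 2.39-fold. A Hoxa9 UMI was seen in 97.0% of EHT cells and 57.9% of arterial cells, and after thinning in 50.8% and 30.1%, against 1.92% and 0.324% of macrophages.

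Hoxa5, which lies near the middle of the cluster, had 23.8 and 30.4 CPM in control and 14.1 and 22.4 CPM in cKO arterial cells. In EHT cells it had 54.4 and 41.4 CPM in control and 41.9 and 52.7 CPM in cKO pools. All EHT pools were above all arterial pools, and the log2 fold change was 1.13 (SE 0.16, edgeR adjusted p = 5.87e-05). Hoxa7, the neighbour of Hoxa9 in the cluster, had 48.4, 61.6, 36.8 and 47.5 CPM in the arterial and 54.1, 64.9, 56.1 and 63.6 CPM in the EHT pools (control replicates 1 and 2, then cKO replicates 1 and 2). These ranges overlapped, although EHT was higher in every pool. Its log2 fold change of 0.37 (SE 0.12, edgeR adjusted p = 0.0156) lost its call in 6 of 13 alternatives, among them without cKO replicate 1 (0.30), and ranged from 0.16 to 0.52.

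The 2 largest falls among the tested members were those of Hoxd9 and Hoxd8. Hoxd8 had 22.7, 22.4, 19.5 and 29.4 CPM in the arterial pools and 2.67, 2.84, 2.56 and 1.61 CPM in the EHT pools, in the same order, a log2 fold change of -3.16 (SE 0.25, edgeR adjusted p = 1.39e-07), 8.92-fold lower. Hoxd9 had 69 UMIs in arterial and 3 in EHT cells, a ratio of 26.7 with a counting interval of 8.78 to 133, and Hoxd4 fell by 1.50 on the log2 scale (SE 0.26, edgeR adjusted p = 0.000195). For all 3 genes no EHT pool reached the lowest arterial pool.

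In HoxB 7 of 8 tested genes fell, by unequal amounts. Hoxb7 had 41.8, 51.3, 40.03 and 48.2 CPM in the arterial and 8.01, 12.99, 11.7 and 6.84 CPM in the EHT pools (log2 fold change -2.12, SE 0.17, edgeR adjusted p = 1.83e-07). Hoxb8 went from 26.5 ± 4.97 to 8.92 ± 2.81 CPM (-1.48, SE 0.24, edgeR adjusted p = 0.000211). The other HoxB genes called moved less, Hoxb5 by -0.92, Hoxb6 by -0.75, Hoxb2 by -0.69, Hoxb4 by -0.67 and Hoxb3 by -0.62. Hoxb9 alone of the 8 was not called (-0.43, SE 0.22, 95% interval -0.91 to 0.05, edgeR adjusted p = 0.120). The call for Hoxb3 was lost in 7 of 12 alternatives, among them without control replicate 2, cKO replicate 1 or cKO replicate 2. The others were DESeq2, no replicate block, gates at 2 times the level and only cells within the stated limits. Hoxb6 lost its call in 5 of 12, without control replicate 1, control replicate 2 or cKO replicate 2, by DESeq2 and with gates at 2 times the level. Over all alternatives the log2 fold changes lay between -0.97 and -0.40 for Hoxb3 and between -1.05 and -0.52 for Hoxb6.

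Within HoxA not all genes moved as Hoxa9 did. Hoxa10, its posterior neighbour, went from 22.3 ± 3.01 to 12.4 ± 2.18 CPM (log2 fold change -0.79, SE 0.17, edgeR adjusted p = 0.00113). Hoxa3 and Hoxa4 were not called, at -0.01 (95% interval -0.71 to 0.69) and -0.28 (-1.10 to 0.53), intervals that leave room for changes of either sign. In HoxC, Hoxc9 fell from 7.12 ± 1.57 to 1.81 ± 0.401 CPM (-1.86, SE 0.36, edgeR adjusted p = 0.000603), and Hoxc10, at -1.52, missed the threshold (edgeR adjusted p = 0.0515).

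**Figure D4:**
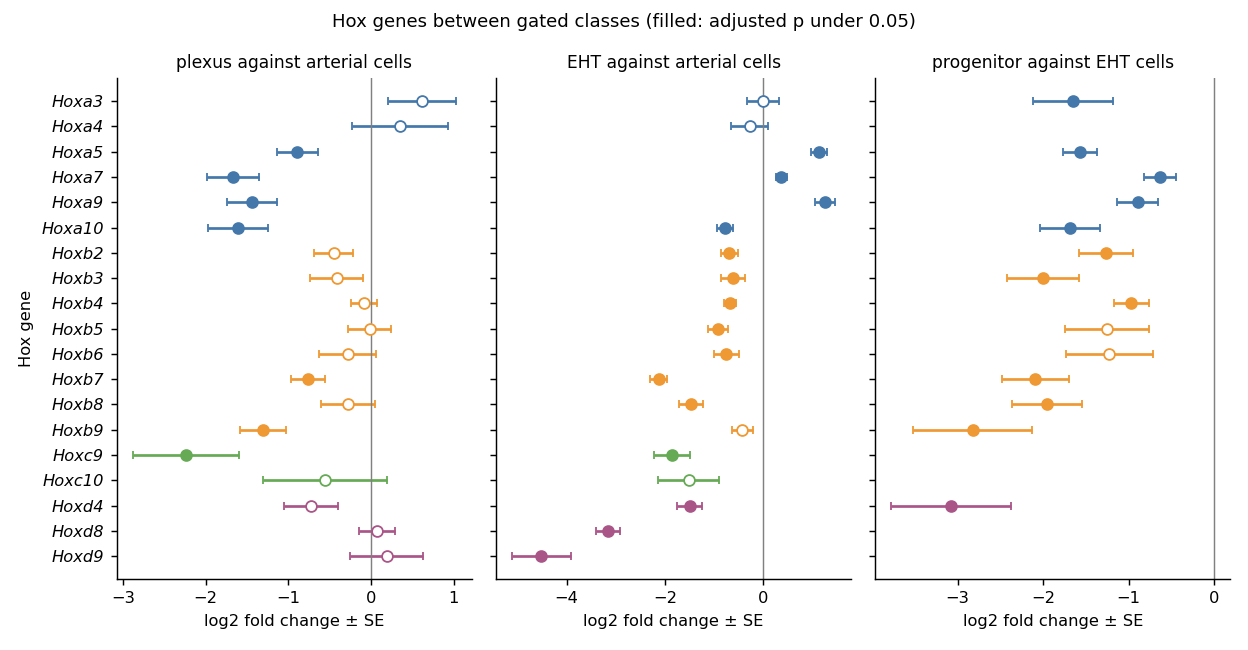
Log2 fold change with its SE (x axis) of the tested Hox genes (rows, 1 gene not shown) for plexus against arterial, EHT against arterial and progenitor against EHT cells, in 3 panels with their own scales, coloured by cluster, filled where the adjusted p was under 0.05. In the EHT panel 3 filled HoxA points (Hoxa5, Hoxa7, Hoxa9) stand above 0 and the other filled points below it, down to Hoxd9 at -4.51.

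The EHT gate held cells along a range, and the clusters did not shift together along it. Of the 199 EHT cells 54 also passed the Gja5 gate alone, 53 the Ptprc and Myb gate alone, and 89 neither of these. This order was laid out after the data were seen and is a description. HoxA went from 188 CPM in arterial cells to 282 in EHT cells with Gja5, 277 in those with neither, 328 in those with Ptprc and Myb, and 146 in progenitor cells. HoxB went 212, 146, 86.6, 97.5 and 35.9 CPM, and HoxD 46.8, 19.7, 4.37, 3.74 and 0.70 CPM. HoxA was thus high already in the EHT cells that kept Gja5, where all 4 pools (247 to 316 CPM) were above the highest arterial pool (244 CPM), while HoxB and HoxD were lower again in the next group.

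For single genes the same was seen. Hoxa9 had 69.8, 144, 148, 180 and 83.1 CPM along the 5 groups, and Hoxd8 had 23.5, 7.32, 0.73, 0.62 and 0.22 CPM. Hoxb7 had 45.4, 22.7, 6.27, 6.08 and 2.28 CPM. The HoxA share of Hox UMIs had means of 40.3%, 61.5%, 74.4%, 75.9% and 80.0%. Over the pools it ran from 71.7% to 81.6% in EHT cells with neither gate, 71.4% to 82.8% with Ptprc and Myb, and 75.6% to 83.9% in progenitor cells. These ranges overlapped. Between the first and second of these groups it fell in cKO replicate 1 (71.7% to 71.4%) and cKO replicate 2 (81.6% to 76.3%). The smallest group of a pool held 9 cells.

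**Figure D5:**
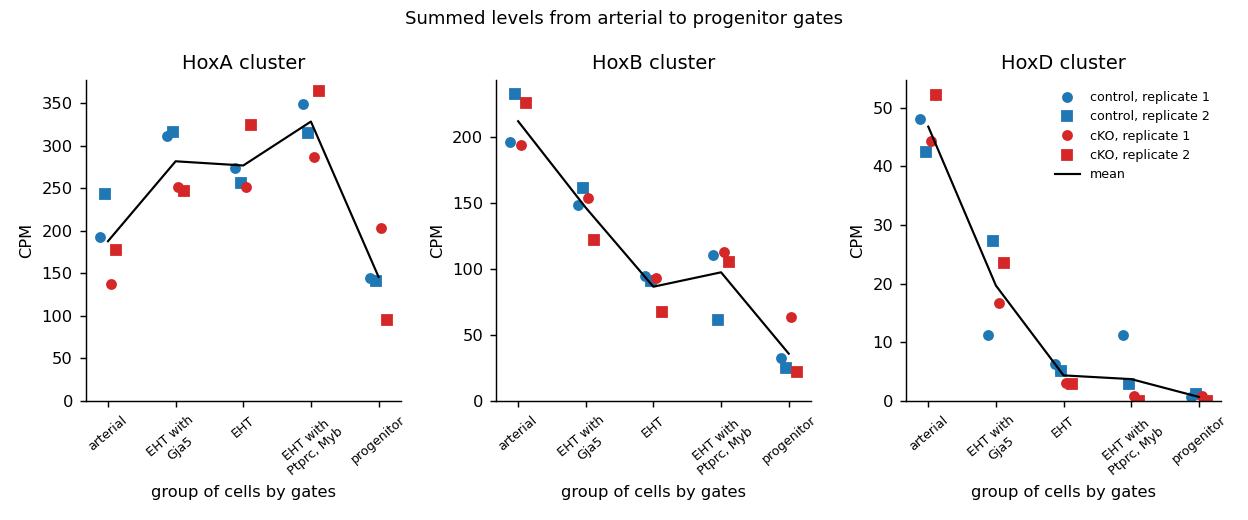
Summed CPM (y axis, from 0, each panel with its own scale) of the HoxA, HoxB and HoxD clusters in arterial cells, EHT cells with Gja5, EHT cells with neither further gate, EHT cells with Ptprc and Myb, and progenitor cells (x axis). Points are the 4 pools, blue control and red cKO, circles replicate 1 and squares replicate 2, and the line joins their means, which for HoxA peak at 328 CPM and for HoxD fall from 46.8 to 0.70 CPM.

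Most of the tested Hox genes were lower in progenitor than in EHT cells. This class depends on the order of the gates. The Ptprc and Myb gate was passed by 246 cells, and 163 of these joined a class whose gate came first. The 53 EHT cells that passed it without the Gja5 gate had 434 CPM of Hox RNA, and the progenitor class had 184 CPM. Of 14 tested members 12 passed and all of these were lower, beside 29.5% of 9961 genes called, 15.5% called lower and 14% higher, and the median log2 fold change was -1.61 over members and 0.00 over all genes. The smallest falls among the genes called were those of Hoxa7 and Hoxa9, which lead in EHT cells. Hoxa9 had 71.7, 88.5, 119 and 52.7 CPM in the progenitor pools, all under the lowest EHT pool (141 CPM), with a log2 fold change of -0.90 (SE 0.24, edgeR adjusted p = 0.0374), and Hoxa7 had -0.63 (SE 0.19, edgeR adjusted p = 0.0251). Both calls depended on the settings, since Hoxa9 lost its call in 5 of 13 alternatives, among them without control replicate 1 or control replicate 2, and Hoxa7 in 8 of 13, among them by DESeq2, without the replicate block and without control replicate 1, control replicate 2 or cKO replicate 2. Over alternatives they ranged from -1.14 to -0.30 and from -0.85 to -0.40.

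The other HoxA genes called were Hoxa5 (-1.57, SE 0.20, edgeR adjusted p = 3.7e-05), Hoxa10 (-1.69) and Hoxa3 (-1.65). In HoxB, Hoxb7 fell by 2.09, Hoxb3 by 2.01, Hoxb8 by 1.96, Hoxb2 by 1.27 and Hoxb4 by 0.97 on the log2 scale. Hoxb9 had 0.664, 1.26, 11.5 and 0 CPM in the progenitor pools against 24.4, 11.4, 25.1 and 18.9 in EHT cells, so that cKO replicate 1 stood apart and overlapped with EHT, and its call (-2.82, SE 0.69, edgeR adjusted p = 0.0276) was lost without control replicate 1 or control replicate 2. The call for Hoxa3 was lost without cKO replicate 1 and by DESeq2. That for Hoxb2 was lost without cKO replicate 2, by DESeq2 and with gates at 2 times the level. Hoxd4 had 51 UMIs in EHT and 3 in progenitor cells, a ratio of 9.21 with a counting interval of 2.98 to 46.1. With cells of 2 gates left out, 5 members passed of 9 tested, beside 1862 of 8860 genes. Hoxb5 and Hoxb6, at -1.25 and -1.23, did not pass (edgeR adjusted p = 0.0685 and 0.0847).

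Hoxa5, Hoxa7, Hoxa9 and Hoxa10 were lower in plexus than in arterial cells. Of 20 tested members 7 passed and all 7 were lower, beside 13.9% of 9413 genes called, 5.85% called lower and 8.1% higher, and the median log2 fold change was -0.50 over members and -0.02 over all genes. Hoxa9 had 14.2, 19.3, 24.5 and 32.9 CPM in the plexus pools, each under the lowest arterial pool (47.6 CPM), a log2 fold change of -1.44 (SE 0.30, edgeR adjusted p = 0.0162). With only cells within the stated quality limits this call was lost (-1.49, edgeR adjusted p = 0.0512). Hoxa7 changed by -1.67 (SE 0.32, edgeR adjusted p = 0.00594), Hoxa10 by -1.61 (SE 0.36, edgeR adjusted p = 0.00587) and Hoxb9 by -1.31 (SE 0.27, edgeR adjusted p = 0.00336). Hoxa5 (-0.89), Hoxb7 (-0.76) and Hoxc9 (-2.24) passed as well. The first 2 did not pass without control replicate 1 or control replicate 2, and Hoxc9 not without control replicate 1 or cKO replicate 1. By DESeq2 none of these 3 passed, nor did Hoxa5 without the replicate block or Hoxb7 with thinned cells. Without control replicate 1, 4 of 19 tested members passed, beside 945 of 9164 genes. By DESeq2 4 of 32 passed, beside 757 of 15179 genes.

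The members that did not pass in plexus cells included the leading gene of that class. Hoxb4 had 42.6, 47.0, 34.98 and 38.5 CPM in plexus and 50.3, 48.0, 37.9 and 43.5 CPM in arterial pools, and its difference of -0.08 had a 95% interval of -0.41 to 0.24. Hoxd8, at 0.08 (-0.39 to 0.54), and Hoxb5, at -0.02 (-0.57 to 0.54), had intervals that left out a change of 2-fold either way. Hoxa3 had 12.4, 7.24, 4.37 and 12.2 CPM in plexus and 4.04, 6.23, 6.49 and 6.67 CPM in arterial pools, overlapping ranges (0.61, 95% interval -0.26 to 1.49). As 69 of 95 plexus cells also passed the Gja5 gate, most of them carried the marker that defines the arterial class.

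Macrophages had little Hox RNA, and most of its UMIs were Hoxb4. All 20 tested members were lower than in arterial cells, beside 71.6% of 10853 genes called, 38.2% called lower and 33.4% higher. Hoxa3, Hoxb5 and Hoxc10 had 0 UMIs in macrophages, against a floor of 3 UMIs over the class (0.0813 CPM) at least 71.2-, 184- and 48.7-fold lower than in arterial cells. A further 11 members had between 1 and 3 UMIs, and the median log2 fold change was -7.74 as fitted and -7.18 with the members at 0 set to their bound. Hoxb4 had 1.89, 4.18, 1.56 and 3.74 CPM in the macrophage pools, a log2 fold change of -3.54 (SE 0.19, edgeR adjusted p = 8.52e-13), the least of all members. It supplied 135 of 201 Hox UMIs in macrophages (67.2%, 95% exact Clopper-Pearson interval 60.2% to 73.6%) and 449 of 4611 in arterial cells (9.74%, 8.90% to 10.6%), intervals that cover counting error only. The pools were not alike, since in control replicate 1 HoxA supplied 5.04 of 7.56 CPM, more than Hoxb4 there, while in the other pools HoxA lay between 0.552 and 1.25 CPM.

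The genotype comparison asked whether loss of Nupr1 in endothelium moved Hox genes within a class. No member passed in arterial (0 of 20 tested), plexus (0 of 12), EHT (0 of 14) or progenitor cells (0 of 5) by edgeR, and 0 passed by DESeq2 in each. At an unadjusted p under 0.05 there were 1, 2, 0 and 0 members. Over all genes 0%, 0%, 0.0102% and 0% were called, 1 gene in all. With the replicate as a block 0 members passed in each class as well, with 3, 3, 0 and 0 members at an unadjusted p under 0.05 and 3, 0, 2 and 18 genes called over all.

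The member with an unadjusted p under 0.05 in arterial cells was Hoxa9, with 71.2 and 106 CPM in the control and 47.6 and 54.9 CPM in the cKO pools. The cKO pools were both below the control pools, and the log2 fold change was -0.78 (SE 0.28, 95% interval -1.39 to -0.16) at an edgeR adjusted p of 1.00. HoxA summed to 218 ± 36.0 CPM in control and 157 ± 28.9 CPM in cKO arterial cells (n = 2), and HoxB to 214 ± 26.2 and 210 ± 22.5 CPM. In EHT cells Hoxa9 had 155 CPM in control and 157 in cKO, a difference of 0.04 with an interval of -0.48 to 0.56, and Hoxa7 59.5 and 59.8 CPM (0.02, -0.54 to 0.58), so changes as large as 1.5-fold were outside these intervals. In plexus cells Hoxa7 (7.20 and 19.5 CPM in control and cKO means, 1.35) and Hoxb9 (5.68 and 15.3 CPM, 1.43) were higher in cKO at unadjusted p of 0.0310 and 0.0256 and at an edgeR adjusted p of 0.999. In progenitor cells Hoxa9 had 71.7 and 88.5 CPM in the control and 119 and 52.7 CPM in the cKO pools. The cKO pools lay on either side of the control pools, and the log2 fold change was 0.06, or -0.58 without cKO replicate 1.

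Of 9 TALE cofactor genes listed 6 were tested in EHT against arterial cells, 1 higher and 2 lower, a share called near the 55.3% of all genes. Meis1, a Hox cofactor of stem cells, had 26.8, 22.4, 33.5 and 18.0 CPM in arterial and 72.1, 56.4, 67.5 and 65.6 CPM in EHT pools (log2 fold change 1.46, SE 0.14, edgeR adjusted p = 7.57e-07). Meis2 went from 69.5 ± 12.5 to 21.1 ± 6.25 CPM (-1.66, SE 0.14, edgeR adjusted p = 3.46e-07), and Pbx3 fell by 0.63. Pbx2, among the highest of the list, was not called (0.04, SE 0.09). In progenitor against EHT cells Meis2 (-3.55) and Meis1 (-0.63) were lower, and in plexus against arterial cells Meis1 (-2.27).

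Of 13 genes of the Cdx and axial list 12 were in the table and 2 were tested, and both were lower in EHT, Rarb, a retinoic acid receptor, by -1.39 and Cyp26a1, which degrades retinoic acid, by -2.54. Cdx1, Cdx2 and Cdx4, the caudal factors that act on Hox clusters at gastrulation, had at most 1 UMI in each of the arterial, plexus, EHT, progenitor and macrophage classes. Of 6 trithorax genes, Psip1 was higher in EHT (0.78) and Kmt2a (-0.47) and Ash1l (-0.28) lower, and of 13 Polycomb genes tested Eed (0.87), Jarid2 (0.64), Ezh2 (0.49) and Suz12 (0.31) were higher and Phc2 (-0.95) and Ezh1 (-0.83) lower. Calls in both lists were no more common than the 55.3% of all genes. Among noncoding RNAs of the clusters, Hotairm1, read from the HoxA cluster, fell by 1.73 and Hoxb5os had a log2 fold change of 2.80 (9 UMIs in arterial and 78 in EHT cells). Whether the counting used the strand is not given in the sources used here, so reads of these 2 RNAs cannot be told from those of Hox genes that they overlap. In the genotype comparison 0 genes of these lists passed.

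Markers of other tissues were checked beside these levels, since mesenchyme of the trunk is rich in Hox RNA. The 10 mesenchymal markers summed to between 71.2 and 289 CPM in the arterial pools, all 10 detected, and to between 37.8 and 158 CPM in the EHT pools, with Col1a1 and Myog at 0. Over the arterial pools (control replicates 1 and 2, then cKO replicates 1 and 2) they summed to 71.2, 95.4, 289 and 89.4 CPM. The Hox sums were 450, 538, 385 and 472 CPM in the same order, and the epithelial markers summed to 1.83, 1.83, 20.6 and 2.35 CPM. The 379 arterial cells with fewer than 20 UMIs of the mesenchymal markers had 467 CPM of Hox RNA. All 390 had 468 CPM, both as sums over the cells of all pools. The part of mesenchymal or epithelial transcripts in the arterial levels and in the EHT contrast was not tested.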

How the data were processed

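Reads were counted by the authors in Cell Ranger 5.0.1 (mm10, per the labels), who then selected hashtag singlets in Seurat, and deposited raw counts, UMIs per gene and cell, with the hashtag (WT or KO) of each cell. No doublet caller was run here. The members, lists and tests were chosen with earlier results of these data known, and the gate levels after the marker distributions were seen.

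All 2139 cells were kept. A cell joined the first class whose gate it passed, in UMIs per 10000: C1qa at 1 (macrophage), Gp9 at 1 (megakaryocyte), Mpo and Fcgr3 at 1 (myeloid), Gfi1 and Neurl3 at 0.2 (EHT), Ptprc and Myb at 0.2 (progenitor), Nr2f2 and Aplnr at 0.2 (venous), Kitl and Esm1 at 0.2 (plexus), Gja5 at 1 (arterial). In all 323 cells passed 2 or more gates. Counts were summed per class, genotype and replicate where a sum had 10 cells (the split of EHT cells by further gates also used smaller sums, down to 9 cells), and CPM is over all UMIs of that class and pool. The 2 libraries held 32430285 and 91511039 UMIs. edgeR 4.0.16 (R 4.3.3) with its quasi-likelihood test, TMM scaling, the filterByExpr filter and robust estimation was fitted on all genes, with Benjamini-Hochberg adjustment and a threshold of 0.05. Class contrasts had the pool as a block, genotype contrasts had none. An SE is the log2 fold change divided by the root of F, and intervals are at 95%. Scripts were tested on simulated data.

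The replicate number marks a shared 10x lane, so numbers pair the samples: deviations from the genotype means correlated at r = 0.422 in arterial, 0.301 in plexus, 0.425 in EHT and 0.527 in progenitor cells (across genes, which are not independent replicates). The genes named were the 10 members with the highest mean level, those passing a test, the highest of each class and, of the lists, those passing and the 2 with the highest level; others named were chosen after their values were seen. Of these, 1 member and 1 cofactor enter the counts and sums but are not reported here. Alternatives were DESeq2 1.42.0, RLE scaling, no filter, the other block setting, gates at 0.5 and 2 times the level, cells thinned to 6000 UMIs, only cells within the stated limits (over 1800 genes and 6000 UMIs, under 5% mitochondrial), each pool left out and, added later, cells of 2 gates left out. Promoter windows are RefSeq's on GRCm38.p6, 24 windows for 22 Hox genes, and gene positions are GENCODE's on GRCm38, matched by symbol for 39 of 39 members.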

Additional observations from a re-analysis of the deposited data

Results flagged for a closer look

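Hoxb9 in progenitor cells was flagged for a pool far from the others, cKO replicate 1 at 11.5 CPM, with the nearest at 1.26 CPM. Hoxd8 in progenitor cells was flagged for the same pool, at 0.885 CPM, which is 1 UMI, with 0 in the other 3. In macrophages the HoxA sum of control replicate 1 was 5.04 CPM, with the nearest pool at 1.25 CPM, and the HoxD sum of 1 pool was 0 CPM, with the nearest at 0.307 CPM. Chance flags about 1 in 20 groups of 4 pools in this way, a rate that need not hold for counts this near to 0.

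The cKO minus control difference of the HoxA sum was above 0 in plexus cells (2.57 and 19.5 CPM in replicates 1 and 2) and below 0 in arterial cells (-55.7 and -65.8 CPM). That of the HoxC sum was above 0 in plexus cells (0.874 and 4.56 CPM) and below 0 in arterial (-3.29 and -2.57 CPM), EHT (-3.93 and -2.06 CPM) and progenitor cells (-3.10 and -0.628 CPM). Neither difference between classes was tested.

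Cells that passed no gate entered no comparison and had 198 CPM of Hox RNA, above the macrophage level.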

How the results depend on the processing

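Counts of members passing changed most where counts were fewest. With cells thinned to 6000 UMIs fewer genes were tested. In EHT against arterial cells 5 of 8 tested members passed, beside 2659 of 6308 genes. In plexus against arterial cells 2 of 6 passed, beside 416 of 5250 genes. In progenitor against EHT cells 0 of 2 passed, beside 477 of 3660 genes. In macrophage against arterial cells 11 of 11 passed, beside 4585 of 7488 genes. DESeq2 passed 4 of 32 members in plexus against arterial cells, beside 757 of 15179 genes. The fit that left out cells of 2 gates was added after seeing the data. It passed 5 of 9 tested members in progenitor against EHT cells, beside 1862 of 8860 genes. That fit could not be made for plexus cells.

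Leaving out a pool gave 14 to 16 members in EHT against arterial and 4 to 7 in plexus against arterial cells. It gave 8 to 13 in progenitor against EHT and 19 to 20 in macrophage against arterial cells. Over all genes these fits called 4912 to 5404, 929 to 1271, 1996 to 2804 and 7068 to 7392, in the same order. The main fits called 5852, 1313, 2941 and 7771 genes. Without a pool a genotype contrast has 1 pool in a group, so only its log2 fold changes are given, below. Without the replicate block the class contrasts passed 14 of 19, 5 of 15, 9 of 12 and 18 of 18 tested members. Over all genes they called 4465 of 9933, 730 of 8687, 1567 of 9238 and 6280 of 10141. With the block the genotype contrasts passed 0 members in each class. The block changed no count of members passing by over 1.5 times.

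Over 93 results for named genes, 995 of 1117 alternative values kept direction and side of the threshold, 53 lost the call and 4 gained it (all Hoxb9 in EHT against arterial cells). A further 65 changed sign, in 24 results, 61 of them in the genotype contrasts, and 0 of these were called in either fit. Their causes were not tested. The log2 fold changes that follow are cKO against control unless another contrast is named. With gates at 0.5 times the level the values were in arterial cells Hoxb2 -0.17, in plexus cells Hoxa5 0.14, in EHT cells Hoxa5 0.053 and in progenitor cells Hoxa5 0.17, Hoxa7 0.020 and Hoxa9 -0.0087. With gates at 2 times the level the values were in arterial cells Hoxb2 -0.034 and Hoxb8 -0.025, in plexus cells Hoxa5 0.086 and Hoxb8 -0.067, in EHT cells Hoxa5 0.074 and in progenitor cells Hoxa5 0.42 and Hoxa7 0.59. With thinned cells the values were in arterial cells Hoxa10 0.31, Hoxb2 -0.22, Hoxb8 -0.28 and Hoxb9 -0.28 and in EHT cells Hoxa5 0.29, Hoxa7 -0.026 and Hoxa9 -0.21. Within the stated cell limits the values were in EHT cells Hoxa5 0.0063 and in progenitor cells Hoxa5 0.040 and Hoxa7 0.037. With cells of 2 gates left out the values were in EHT cells Hoxa10 0.30, Hoxb2 -0.11 and Hoxb9 -0.14. With the replicate block the values were in progenitor cells Hoxa9 -0.013. In plexus against arterial cells gates at 2 times the level gave Hoxb4 0.13 and Hoxb8 0.035.

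Leaving out 1 pool changed the sign of more. In arterial cells the ranges were -0.34 to 0.15 for Hoxa10, -0.29 to 0.29 for Hoxb2, -0.24 to 0.11 for Hoxb7, -0.13 to 0.42 for Hoxb8, -0.12 to 0.47 for Hoxb9 and -0.24 to 0.40 for Hoxd8. In plexus cells the ranges were -0.44 to 0.14 for Hoxa5, -0.54 to 1.45 for Hoxb8 and -0.47 to 0.54 for Hoxd8. In EHT cells the ranges were -0.21 to 0.19 for Hoxa5, -0.12 to 0.17 for Hoxa7, -0.15 to 0.20 for Hoxa9, -0.41 to 0.22 for Hoxa10, -0.57 to 0.25 for Hoxb7, -1.01 to 0.093 for Hoxb8 and -0.12 to 0.95 for Hoxb9. In progenitor cells the ranges were -0.59 to 0.51 for Hoxa5, -0.65 to 0.47 for Hoxa7, -0.58 to 0.51 for Hoxa9 and -0.50 to 1.09 for Hoxb2. In plexus against arterial cells they were -0.55 to 0.035 for Hoxb8 and -0.12 to 0.20 for Hoxd8.

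Small counts limit HoxC and HoxD in EHT and progenitor cells, and genotype and embryo sex cannot be told apart.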

Other observations

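The 307 cells that passed no gate were mixed in their Hox RNA. Of these 25 had 20 or more UMIs of the mesenchymal markers, a split made after the data were seen, and had 704 CPM of Hox RNA, with 165 CPM from HoxC. Hoxc8, a gene of the trunk level, was at 66.7 CPM there, and the collagen gene Col3a1 at 572 CPM. In the other 282 ungated cells the Hox sum was 123 CPM, HoxC 2.50 CPM, Hoxc8 0.626 CPM and Hoxa9 45.3 CPM. Hoxa9 was thus at a like level in both (39.8 CPM in the first), while HoxC was not. The values are sums over all pools, with no test.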
